A study of Zea mays with 6 samples.

Results

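The maize genes glk1 (NCBI gene 541882, also listed as G2-like1) and GLK13 (NCBI gene 542493, with the gene model GRMZM2G087804) were the 2 genes with a Golden2-like name among 1108 genes that could be paired with probe sets. They were taken by symbol or RefSeq synonym, and each had 1 probe set, so they account for 2 of the 17555 probe sets on the array. Of 12 genes with a GLK number in the RefSeq table, these 2 could be paired with a probe set. No probe set carried the name golden2, and the annotation used here does not say whether GLK13 is that gene under another name.

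Golden2-like factors are plant transcription factors that switch on nuclear genes for the chloroplast, above all those for the light-harvesting antenna, the photosystems and chlorophyll synthesis. In the C4 leaf of maize, whose photosynthesis is shared between mesophyll and bundle sheath cells, transcripts of glk1 are known from the mesophyll and those of the founding member, golden2, from the bundle sheath. The annotation used here gives no role for GLK13 beyond its family name. Whether GLK13 is golden2 itself, and so a bundle sheath transcript, was not tested.

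Plants of the maize line A661 grew at 15 °C for 3 weeks and then at 25 °C for 1 week, after which leaf 3 had a distal section lacking chlorophyll (CL) and a proximal one containing it (CC). Total RNA from the 2 cm of each section next to the transition was read on 3 arrays per section, one per biological replicate, with CC as the control. Both sections come from the same line and passed through the same temperatures, so the arrays hold no plants kept warm throughout. Day length (14 h) and light level (228 µmol per square metre and second) were also the same for both. The effect of lacking chlorophyll and that of lying nearer the leaf tip cannot be told apart in these samples. Levels are given as log2 values from RMA, on which a difference of 1 is a 2-fold difference, and precision is limited by how few arrays there are.

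Both factors were lower in the section without chlorophyll. The fall was 5.37-fold for glk1 and 2.98-fold for GLK13, and in neither gene did any CL array reach the lowest CC array. For glk1 the adjusted p stayed under 0.05 in all 16 alternatives tried. The call of GLK13 was lost in 5 of its 16. These were the omission of any one of 3 arrays, a threshold of 0.01, and a fit with same-numbered arrays as blocks (replicate block, limma adjusted p 0.0728). As background, 15.2% of all probe sets passed as lower in CL, 15.9% as higher and 31.1% in either direction. Every CL array lay below every CC array in 26.8% of probe sets and in 32.0% of genes, so a fall of some size was common on these arrays.

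The probe set of glk1 read 7.32, 6.19 and 6.48 in CL, against 8.82, 9.36 and 9.09 in CC. All 3 CL arrays were low, with replicate 1 the least so, and the CC arrays lay within 0.54 of one another. Means ± SD over 3 arrays were 6.66 ± 0.59 in CL and 9.09 ± 0.27 in CC. The log2 change, CL minus CC, was -2.43 (SE 0.29, 95% interval -3.11 to -1.74), with a limma adjusted p of 0.00306 over all probe sets. In size this was the 36th largest fall of the 17555 probe sets and the 6th largest of the 1108 genes. A fall of this size was reached by 0.205% of probe sets.

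GLK13 read 5.98, 5.79 and 5.03 in CL, against 6.48, 7.31 and 7.72 in CC. The groups did not overlap, but CL replicate 1 and CC replicate 1 lay only 0.51 apart, whereas the corresponding gap for glk1 was 1.50. Means ± SD were 5.60 ± 0.50 in CL and 7.17 ± 0.63 in CC. Its log2 change was -1.58 (SE 0.36, 95% interval -2.43 to -0.72; limma adjusted p = 0.0183), the 30th largest fall among the genes and the 159th among the probe sets. Without CL replicate 3 the change was -1.29 with an adjusted p of 0.0606, without CC replicate 2 it was -1.51 (adjusted p 0.0619) and without CC replicate 3 it was -1.30 (adjusted p 0.0510).

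**Figure D1:**
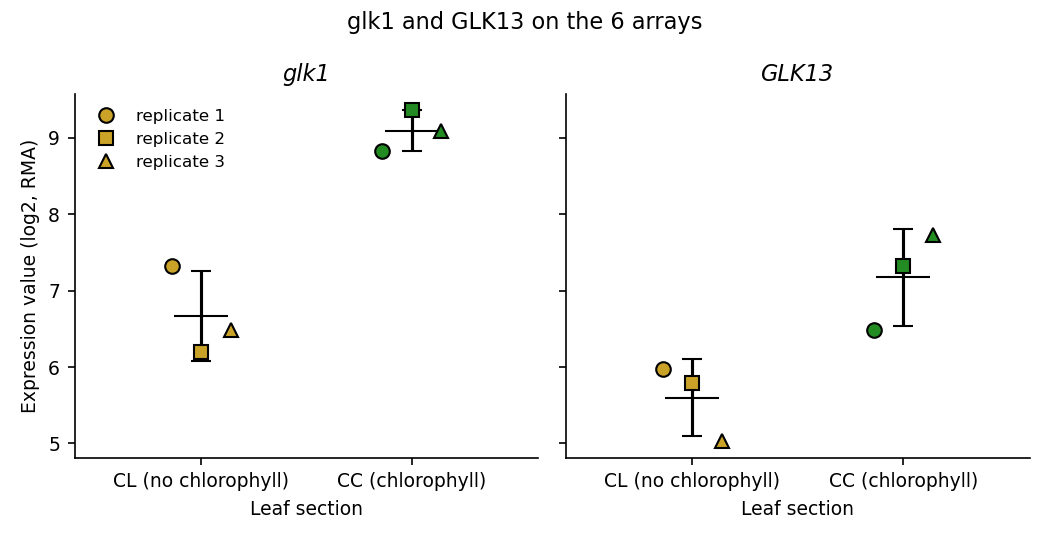
Expression values (log2, RMA) of glk1 and GLK13 in the CL and CC sections; each point is 1 array, its shape gives the replicate number, and the bars are the mean ± SD of 3 arrays. All CL points lie below all CC points in both genes, by 1.50 for glk1 and by 0.51 for GLK13 between the nearest arrays.

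Whether the falls of the 2 factors differ in size was examined through the log2 ratio of glk1 to GLK13 on each array. That ratio was 1.34, 0.40 and 1.45 in CL, against 2.34, 2.05 and 1.37 in CC. The sections overlapped, since CL replicate 3 was above CC replicate 3. Between the sections the mean ratio differed by -0.85 (exact permutation test over arrays, two-sided, p = 0.2, n = 3 each), in a design that cannot give a p under 0.1. A larger fall of glk1 than of GLK13 was therefore not shown beyond the spread between arrays.

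Arrays of a section differed more in these 2 genes than in most. The SD within a section, pooled over both sections, was 0.46 for glk1 and 0.57 for GLK13, above 95.5% and 97.6% of all probe sets. In both genes replicate 1 was the highest array in CL and the lowest in CC, which placed it nearest the other section. That arrangement was found in 18.6% of all probe sets and in 40.3% of the 2668 that passed as lower in CL, and thus belongs to many of the falls and not to these genes alone.

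The order of the remaining arrays separated the 2 genes. The first principal component of the 17555 probe sets, computed without glk1 and GLK13, held 71.8% of the variance and ran from CL replicate 3 at -40.7 through CL replicate 2 at -40.3 and CL replicate 1 at -24.6 to CC replicate 1 at 22.1, CC replicate 2 at 35.6 and CC replicate 3 at 48.0. GLK13 ordered the 6 arrays exactly as this component did, an order shared by 8.25% of the probe sets that passed as lower. In glk1 the arrays numbered 2 and 3 changed places in both sections, so that CL replicate 2 was lowest and CC replicate 2 highest. That order was more frequent, at 14.4% of the same probe sets. CL replicates 2 and 3 were only 0.4 apart on the component, so the order of that pair has little weight.

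**Figure D2:**
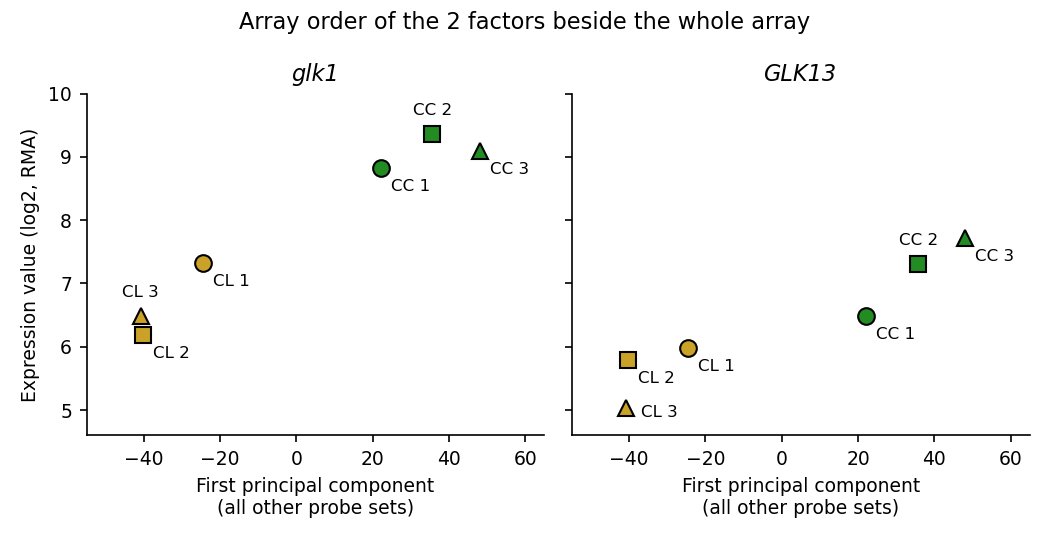
Expression values (log2, RMA) of glk1 and GLK13 against each array's position on the first principal component of all other probe sets; each point is 1 array, labelled with its section and replicate number. GLK13 follows the order of the component over all 6 arrays, whereas in glk1 replicates 2 and 3 are exchanged in both sections.

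The factors were next set beside other genes named as transcription factors. Of 73 such genes, the 2 factors included, 14 fell, 5 rose and 54 did not pass. The share that fell, 19.2%, was near the 22.3% found among all 1108 genes, and the share that rose, 6.85%, was under the 19.7% found there; the list's median log2 change was -0.14, against -0.08 over all genes. Falls numbered 9 without CL replicate 1 or CL replicate 3 and 7 without CC replicate 2 or CC replicate 3. Rises numbered 3 without CL replicate 2, CL replicate 3 or CC replicate 2. With the replicate block there were 6 falls and 2 rises. Leaving out the dimmest 25% of probe sets gave 9 falls, and 42 of the other 71 genes had a mean under 5 in both sections.

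By size of fall, glk1 and GLK13 came directly after 1 other member of that list. That member was GT1 (NCBI gene 542140), which was matched by its symbol alone and whose product the tables do not give. It read 6.85, 6.19 and 5.40 in CL, against 8.27, 8.92 and 9.53 in CC, a log2 change of -2.76 (SE 0.43, limma adjusted p over genes = 0.00359). GT1 ordered the 6 arrays as GLK13 did. These 3 were the only members that fell by at least 2-fold. The next fall, named after the values were seen, was that of zmm19, a MADS-box gene also listed as tunicate1, with a log2 change of -0.96 (SE 0.10).

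Rises among the transcription factors were led by ZMM2 (NCBI gene 100037764), a MADS-box gene also listed as AGAMOUS, with 4.96, 6.40 and 6.24 in CL, against 4.18, 3.77 and 3.90 in CC. Its log2 change was 1.91 (SE 0.36, limma adjusted p over genes = 0.00717), and here too replicate 1 of each section was nearest the other section. A separate gene of the list, zmm2 (NCBI gene 541764), was dim, with means of 2.44 in CL and 2.59 in CC, and did not pass. DBP1a, also listed as DREB2A and so named for a factor that binds drought-response elements, rose by 0.56 (SE 0.12). A heat shock factor gene, hsfb, rose by 0.49 (SE 0.09).

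**Figure D3:**
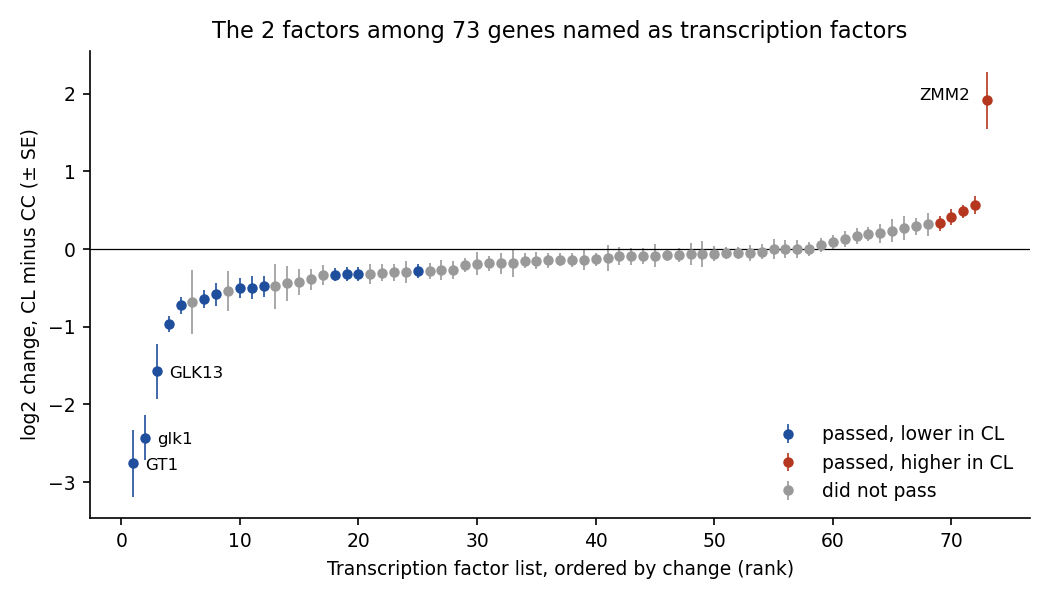
Change between the sections (log2, CL minus CC, ± SE) of 73 genes named as transcription factors, ordered from the largest fall to the largest rise; colour shows whether a gene passed a limma adjusted p of 0.05 over all genes. GT1, glk1 and GLK13 stand below the other members, with changes of -2.76, -2.43 and -1.58.

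Genes of the classes that Golden2-like factors are known to promote in other plants mostly showed smaller changes than both factors, psad1 excepted. Of 9 photosystem and antenna genes, 6 fell and 0 rose with p adjusted over genes, beside 22.3% lower and 19.7% higher among all genes. All 9 changes were negative, from -1.74 to -0.10 with a median of -0.30. The count of falls was 3 without any one of CL replicate 2, CL replicate 3 and the 3 CC arrays. It was 2 with the replicate block. Their mean levels were 10.99, for psad1, to 13.32, at the bright end of the arrays, where the highest value was 13.74. Genes near that value may have little room to show a difference, and saturation was not examined. The sizes of their falls may therefore not be directly comparable with those of the 2 factors. Whether brightness made the falls smaller was not tested.

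The largest of these falls was that of psad1, which encodes a stromal subunit of photosystem I. It read 10.54, 10.05 and 9.77 in CL, against 11.56, 11.98 and 12.03 in CC (log2 change -1.74, SE 0.22). The order of its arrays was that of GLK13, which no other photosystem or antenna gene showed. Among the antenna genes of photosystem II, lhcb5 changed by -0.58 (SE 0.13), lhcb6 by -0.40 (SE 0.13), Cab-m7 by -0.30 (SE 0.09) and Lhcb5-2 by -0.28 (SE 0.09). All 4 of these fell, as did OEE3, a gene for the oxygen-evolving protein PsbQ (-0.44, SE 0.10). These calls rest on p adjusted over genes. Adjusted over all probe sets, as for the 2 factors, Cab-m7, Lhcb5-2 and the brightest probe set of lhcb6 missed 0.05 (limma adjusted p 0.0508, 0.0507 and 0.0513). The other 3 probe sets of lhcb6 gave -0.50 to -0.84 and passed on that scale. Values of psbs1 (-0.20), psah1 (-0.14) and psan1 (-0.10) did not pass.

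Of 3 genes in the list for chlorophyll synthesis, 2 fell, beside 22.3% lower among all genes. The gene oy1, for a subunit of the magnesium chelatase that starts the chlorophyll branch, read 11.37, 11.10 and 11.12 in CL, against 11.73, 11.91 and 11.96 in CC (log2 change -0.67, SE 0.11). The other fall was that of les22, for uroporphyrinogen decarboxylase, an enzyme that chlorophyll and haem synthesis share (-0.34, SE 0.10). Both CL groups lay below their CC groups, as in 32.0% of all genes. The remaining member, elm1, is also listed as Hy2, the name of the enzyme that makes the phytochrome chromophore, and showed a change of -0.07 (SE 0.09) that did not pass.

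Light signalling was represented by phot1, a blue-light receptor also listed as nph1. It read 9.76, 9.59 and 9.62 in CL, against 10.43, 10.48 and 10.34 in CC, a log2 change of -0.76 (SE 0.09, limma adjusted p over genes = 0.00142). Its CC arrays were within 0.145 of one another and replicate 1 was not the lowest of them, unlike in both Golden2-like genes.

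In the remaining plastid lists directions were mixed, and their counts stand beside 42.0% of all genes that passed, 22.3% lower and 19.7% higher. Of 7 sigma factor and import genes, 4 fell, all of them sigma factors, and 2 rose, both import genes, by 1.21 and 1.02. The smallest p was that of sig3, a sigma factor of the plastid RNA polymerase (-0.54, SE 0.08). Of 7 electron transport genes, 4 fell and 1 rose, with the smallest p for FDX6, a ferredoxin (-1.03, SE 0.18). Of 10 C4 and Calvin cycle genes, 2 fell and 1 rose, a share of falls near that of all genes, and the smallest p was that of ppt1, which encodes a plastid transporter of phosphoenolpyruvate and was higher in CL by 0.75 (SE 0.12). The changes of glk1 and GLK13 exceeded in size those of all 24 genes of these 3 lists, which ran from -1.03 to 1.21.

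**Figure D4:**
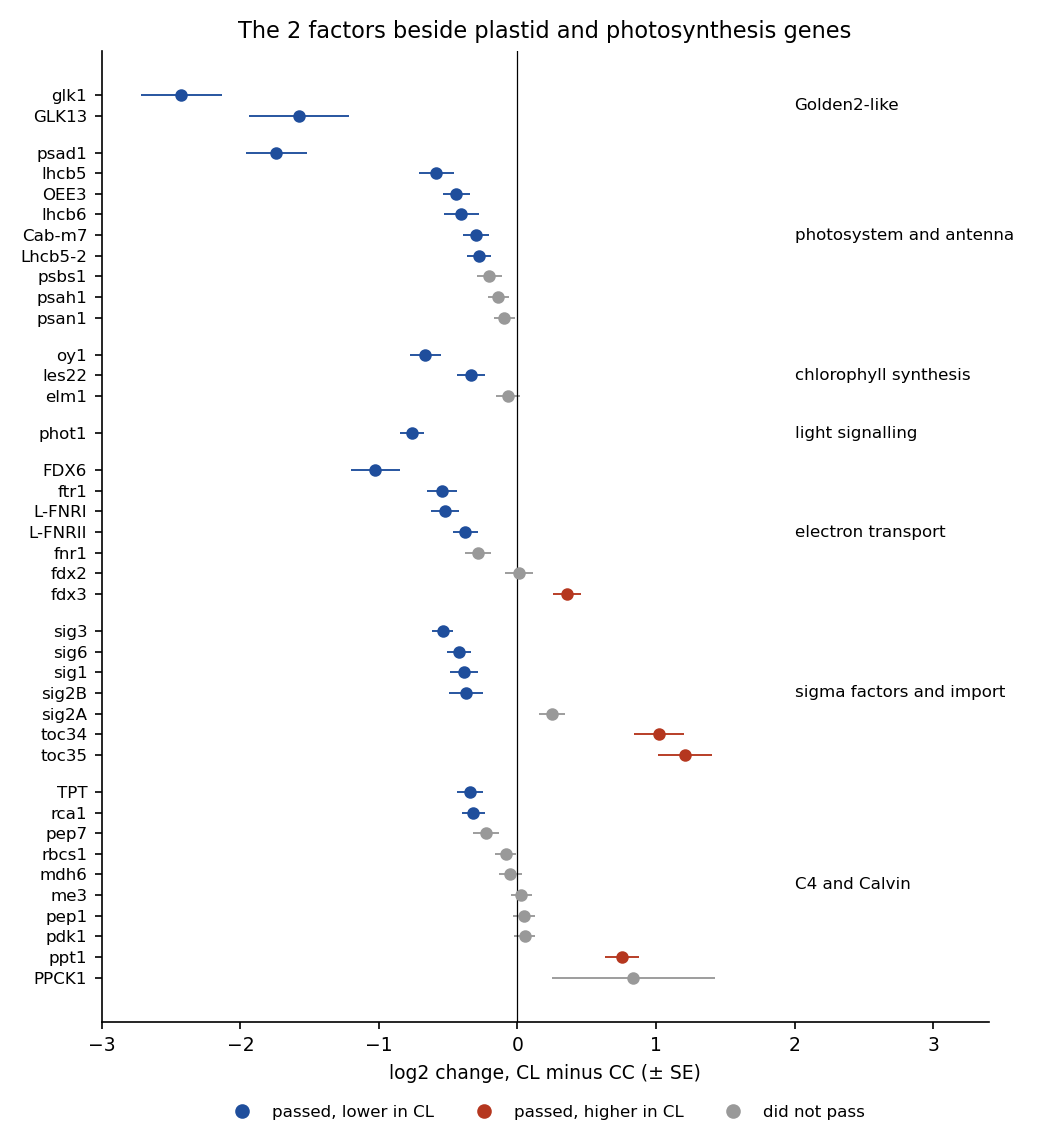
Change between the sections (log2, CL minus CC, ± SE) of glk1 and GLK13 and of the genes in 6 lists of photosynthesis, plastid and light signalling genes; colour shows whether a gene passed a limma adjusted p of 0.05 over all genes. Falls of the photosystem, antenna and chlorophyll synthesis genes other than psad1 are smaller than those of both factors. The photosystem and antenna genes are bright and may have little room to show a difference, which was not tested.

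Since glk1 is a mesophyll transcript in maize, cell type markers were read on the same arrays. In bulk tissue, fewer cells of a type and less RNA per cell cannot be told apart. Marker counts stand beside 22.3% lower and 19.7% higher among all genes. Of 4 mesophyll markers 0 fell and 1, ppt1, rose. The gene pep1, for the phosphoenolpyruvate carboxylase of C4 leaves, read 13.25 to 13.28 in CL and 13.18 to 13.27 in CC. Summed over the list, the mesophyll markers gave 14.71 to 14.73 in CL and 14.66 to 14.69 in CC on the log2 scale. That sum was carried by pdk1, pep1 and mdh6, whose mean levels were 12.66 to 13.29. These were close to the highest value on any array, 13.74, so the sum may have little room to show a difference. The sum of the 3 bundle sheath markers was 14.29 to 14.31 in CL and 14.36 to 14.41 in CC, and 1 of them, rca1, fell. The bundle sheath sum may have the same limit, since me3 and rbcs1 had mean levels of 13.15 and 12.85. The 7 markers of these lists had mean levels of 8.62 to 13.29, and none of them was dim in either section.

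Markers of other tissues moved with the factors in part. Of 3 epidermis and wax genes, 2 fell, beside 22.3% lower and 19.7% higher among all genes. The wax synthesis gene gl1 read 5.56, 5.60 and 5.18 in CL, against 6.86, 7.09 and 7.58 in CC, a log2 change of -1.73. Its other probe sets gave -0.66 and -0.67. The other fall, that of gl15 at -0.33, was in a dim gene, with means of 3.18 in CL and 3.50 in CC. The remaining member, gl8, was the brightest and did not pass (-0.11, SE 0.21). The list's summed level was 8.92 to 9.29 in CL and 9.07 to 9.86 in CC. The vascular sucrose transporter gene sut1, the 1 vascular marker measured, read 10.35, 9.62 and 9.76 in CL, against 10.46, 10.89 and 10.99 in CC, with replicate 1 again nearest the other section. Of 4 meristem and leaf base markers 0 fell and 1 rose, beside the same 22.3% and 19.7% of all genes. Their summed levels were 7.35 to 7.58 in CL and 7.17 to 7.31 in CC. The defining gene of the meristem, kn1, was dim throughout, at 3.48 to 3.71. The part of these markers in the falls of glk1 and GLK13 was not tested.

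Lastly, the genes whose values ran most like those of each factor were ranked by the root mean square difference over the 6 arrays, after each gene had been centred on its own mean. Nearest to glk1 among the other 1107 genes were an aquaporin gene of the PIP1 class (pip, 0.28), the silicon channel gene Lsi1 (0.31), irl1, named for an isoflavone reductase-like protein (0.31), the profilin gene prf1 (0.35) and the beta-expansin gene expB6 (0.36). Their log2 changes were -2.24 to -1.92, all smaller in size than that of glk1. Nearest to GLK13 were gss1, also listed as the starch synthase zSSIIb (0.21), NIR, a nitrite reductase by name (0.22), gl1 (0.26), psad1 (0.27) and pOMT1, an O-methyltransferase by name (0.31). These changed by -1.74 to -1.16, and NIR did not pass (limma adjusted p over genes = 0.0553). GLK13 was the 28th nearest gene to glk1 and glk1 the 103rd nearest to GLK13, with a difference of 0.61 between them. The measure rests on 6 arrays that share 2 sections, so any gene with a fall of like size comes out as near.

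**Figure D5:**
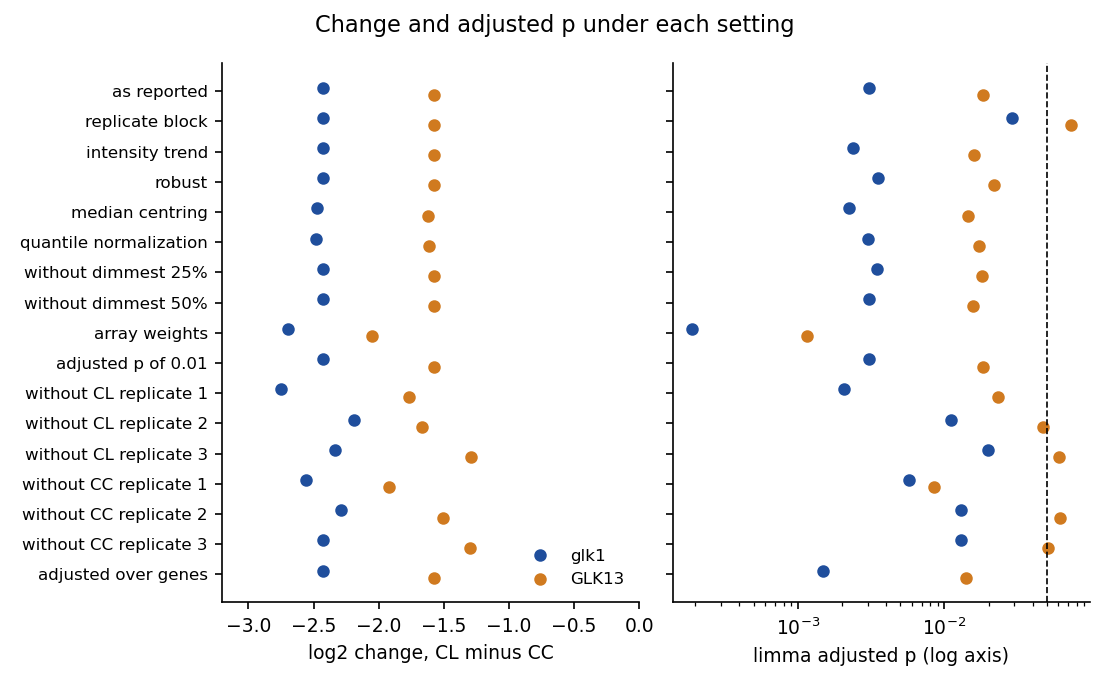
Log2 change, CL minus CC (left), and limma adjusted p on a log axis (right) of glk1 and GLK13 as reported and under 16 alternatives each; the dashed line is an adjusted p of 0.05. All changes are negative, between -2.75 and -2.19 for glk1 and between -2.06 and -1.29 for GLK13, and only GLK13 crosses the line.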

How the data were processed

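RNA from 6 leaf samples was measured, 3 per section, grouped by the section in their titles. The deposited values are log2 RMA expression values; the submitters' processing notes list Affymetrix Expression Console, RMA and limma, versions not given in the sources used here. Per the labels' protocols, 250 ng of RNA were labelled from the 3′ end. RMA sets the arrays to a common distribution and compresses differences at the dim end. No scanner file was used, so no probe was tested against background, and probe sequences were not used, so binding of one factor's transcript to the other's probes was not examined.

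Genes were assigned from an old annotation of the platform and the synonyms of a RefSeq table (Zm-B73-REFERENCE-NAM-5.0), from which 1060 of 1108 genes were matched. The whole table of 17555 probe sets was fitted with limma 3.58.1 (R 4.3.3) for CL minus CC, two-sided, without a filter or block. P-values were adjusted by Benjamini-Hochberg over all probe sets for the 2 factors and over 1108 genes, each by its brightest probe set, for lists; the threshold was 0.05. Levels and changes are log2 values, and SE is limma's moderated standard error. The fit was tested on simulated data, and no 2 arrays of a section were duplicates.

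The factors and the lists were chosen with earlier results of these data known. Lists were matched by symbol patterns; 9 of 82 matches in the transcription factor list and 2 of 12 in the C4 and Calvin list were left out from their names, after values had been seen. Named were the nearest 5 genes of each factor, all photosystem, chlorophyll and light signalling genes, the 3 largest called rises and falls of the transcription factors and the smallest p of each other list.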

Additional observations from a re-analysis of the deposited data

How the results depend on the processing

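The change of glk1 kept its direction and passed in all 16 alternatives (-2.75 to -2.19, limma adjusted p 0.000189 to 0.0288). GLK13 stayed negative in its 16 (-2.06 to -1.29); the change of -1.58 missed a threshold of 0.01 (adjusted p 0.0183) and missed 0.05 with a replicate block (0.0728). Leaving out 1 array gave -1.92 to -1.29 for GLK13, -2.75 to -2.19 for glk1 and -1.12 to -0.52 for the difference of the 2 changes. Leaving out both arrays numbered 1, chosen after seeing the data and not counted here because it had to enlarge both changes, gave -2.89 and -2.11. Same-numbered arrays deviated in opposite directions (Pearson r over probe sets -0.54, -0.35 and -0.39), against -0.00915 to 0.39 for arrays of different numbers. The labels do not say whether same-numbered sections came from the same plants, and these values cannot decide it. The fit without a block was kept as the main one. The difference of the 2 changes had an exact p of 0.5 in a sign-flip test over same numbers, the smallest possible being 0.25. With the replicate block the counts were 1020 probe sets higher and 850 lower, 126 genes higher and 128 lower, 6 transcription factors lower and 2 higher, and 2 photosystem genes lower. At an adjusted p of 0.01 they were 1126 and 867, 121 and 106, 5 and 3, and 1. Array weights gave 4388 probe sets higher, 4940 and 372 genes lower, and 27 transcription factors lower and 8 higher. Quantile normalization of the deposited values gave 11 transcription factors and 4 photosystem genes lower. Without the dimmest 25%, 9 transcription factors were lower; without the dimmest 50%, 1656 probe sets and 8 transcription factors were lower and 3 higher. Leaving out 1 array gave 1308 to 2818 probe sets higher and 1082 to 2865 lower, 129 to 202 genes higher and 132 to 247 lower, 7 to 14 transcription factors lower and 3 to 6 higher, and 3 to 6 photosystem genes lower. Causes were not tested. The mean of probe sets could not differ for the 2 factors, which have 1 each.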
